A study of Rattus norvegicus with 96 samples.

Results

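The genes described here are 9 genes of oligodendrocytes and myelin, Mbp, Mobp, Mog, Mag, Cnp, Mal, Cldn11, Ermn and Ugt8, out of 14218 genes named by the probe sets of an Affymetrix rat array. They were chosen by symbol. Probe sets annotated to 1 of these symbols alone were taken, 18 in all, and the probe set with the highest mean was used for each gene. Their levels are given in 8 microdissected brain regions: the core (NAcC) and shell (NAcSh) of the nucleus accumbens, the ventral tegmental area (VTA), the medial prefrontal cortex (mPFC), the central (CeA) and basolateral (BLA) nuclei of the amygdala, and the dorsolateral (dlBNST) and ventral (vBNST) bed nucleus of the stria terminalis.

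The rats were adult male Wistar rats in 3 groups, with 4 arrays per group and region and 96 arrays in all. The 8 regions came from 4 rats per group, per the methods, so that arrays of different regions share animals. Dependent rats had 4 weeks of self-administration of 10% (w/v) alcohol, followed by 4 weeks of intermittent alcohol vapor. Non-dependent rats self-administered alcohol in the same way without vapor, and both groups were tested for self-administration again after the vapor period, so that vapor exposure and the drinking after it are not separated. Naive rats were age-matched and had no alcohol, and tissue of the 3 groups was taken 3 weeks after the vapor ended. The groups model protracted abstinence in males at that single time.

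Myelin is the multilayered membrane that oligodendrocytes wrap around axons of the central nervous system, where it speeds conduction and supports the axon. Its cytoplasmic faces are held together by basic proteins, its outer and innermost layers carry adhesion proteins of the immunoglobulin family, and its lipids are rich in cholesterol and galactosylceramide. Fiber tracts hold more of it than grey matter. In tissue RNA, fewer oligodendrocytes and less RNA per oligodendrocyte cannot be told apart.

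The deposited values are log2 signals, and every level and difference below is on that scale unless called a fold. The 92 arrays used had medians of 3.81 to 3.94, and the highest correlation of each with another array was 0.9897 at the lowest. The other 4 arrays (CeA non-dependent replicate 2, VTA non-dependent replicate 2, BLA non-dependent replicate 3 and vBNST dependent replicate 1) stood apart, with highest correlations of 0.375, 0.934, 0.952 and 0.960, and they were left out. The mean of the 9 genes on these arrays was 5.20, 9.07, 7.84 and 8.87, against 8.33 to 9.24 on the other CeA arrays, 10.32 to 11.08 on the other VTA arrays, 8.16 to 8.90 on the other BLA arrays and 8.39 to 8.93 on the other vBNST arrays. The vBNST array thus lay inside the range of its region for these genes, and the other 3 lay below theirs. The regions carried their marker genes: the dopamine transporter Slc6a3 averaged 10.47 ± 0.42 (SD, n = 11) in the VTA and 2.82 to 3.15 in the other regions. The vesicular glutamate transporter Slc17a7 averaged 11.38 in the mPFC, 7.43 in the BLA and 3.17 to 3.74 in the other regions. In the NAcSh it reached 6.96 on its highest array (SD 1.13, n = 12), and the reason was not tested. These 2 markers were chosen after their values were seen. The labels name no batch, and p-values measure the spread between arrays.

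The region upstream of a gene's start is where factors of the oligodendrocyte lineage such as Sox10 and Myrf can bind, and it is shown for 3 of the 9 genes. RefSeq windows on GRCr8, 250 bases before to 50 after the start, were found for 7 of the 9 genes, 8 windows in all, with 2 for Mbp. Capitals mark ACAAAG and ACAATG, core motifs of Sox factors, and CTGGCAC and CTGGTAC, motifs of Myrf, on either strand, and none of these motifs overlapped another. The windows of Mobp (chr8:128746982-128747281, + strand), Mag (chr1:95290995-95291294, - strand) and Cnp (chr10:86011254-86011553, + strand) read as follows.
Mobp: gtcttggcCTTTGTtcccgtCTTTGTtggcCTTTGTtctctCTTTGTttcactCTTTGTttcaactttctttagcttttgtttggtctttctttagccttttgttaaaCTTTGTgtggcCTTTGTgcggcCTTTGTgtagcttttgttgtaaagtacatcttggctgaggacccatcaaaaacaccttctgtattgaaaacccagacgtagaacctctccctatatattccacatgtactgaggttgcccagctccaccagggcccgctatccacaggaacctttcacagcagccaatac
Mag: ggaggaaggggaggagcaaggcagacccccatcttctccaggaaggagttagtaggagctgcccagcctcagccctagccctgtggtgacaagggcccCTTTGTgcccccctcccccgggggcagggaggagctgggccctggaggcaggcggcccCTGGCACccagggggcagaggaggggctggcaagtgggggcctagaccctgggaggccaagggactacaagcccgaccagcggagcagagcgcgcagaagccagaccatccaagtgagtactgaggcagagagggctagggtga
Cnp: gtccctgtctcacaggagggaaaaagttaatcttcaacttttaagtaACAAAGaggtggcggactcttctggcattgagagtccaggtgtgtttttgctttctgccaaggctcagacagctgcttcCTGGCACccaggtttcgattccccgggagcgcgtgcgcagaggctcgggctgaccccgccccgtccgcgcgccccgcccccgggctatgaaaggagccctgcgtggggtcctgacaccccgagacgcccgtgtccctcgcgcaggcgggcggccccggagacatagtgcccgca
ACAAAG stood 8 times in the Mobp window and 1 time each in those of Mag, Cnp and the downstream one of Mbp, 4 of 8 windows, whereas 18.8% of all 33469 windows held it and 3 held it 8 or more times. CTGGCAC was in 3 of 8 windows (Mag, Cnp and Mal), against 4.75% of all. CTGGTAC was in that of Cldn11 (2.16% of all), and ACAATG in the downstream one of Mbp (13.2% of all). The upstream window of Mbp and that of Ugt8 held none of these motifs, so the 3 windows shown are ones with matches. A match is a description of these letters, not a binding site.

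All 9 genes were highest in the VTA. Mbp, the basic protein that joins the cytoplasmic faces, read 11.78, 12.67 and 13.41 (lowest, median and highest of 11 arrays) in the VTA, against 9.18, 10.99 and 13.00 on the 81 arrays of the other 7 regions. Mobp, a second basic protein of the compact sheath, read 13.66, 14.10 and 14.22 in the VTA and 11.81, 12.72 and 13.80 elsewhere. Both genes overlapped, in that 14 arrays of the dlBNST and mPFC reached the lowest VTA array for Mbp and 1 dlBNST array did for Mobp. Mal, a proteolipid that sorts proteins to myelin membrane, read 6.51, 7.31 and 8.31 in the VTA and 4.72, 5.75 and 8.09 elsewhere. Cldn11, the claudin of the tight junctions between myelin layers, read 12.89, 13.13 and 13.44 in the VTA and 11.39, 12.30 and 13.01 elsewhere. For Mal 10 arrays and for Cldn11 3 arrays of other regions reached the lowest VTA array.

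For Mog, Mag, Ermn and Ugt8 the VTA arrays did not overlap those of the other regions, whereas for Cnp they did. Mog, a glycoprotein of the outermost myelin layer, read 9.08, 9.63 and 10.47 in the VTA and 5.06, 6.44 and 8.34 elsewhere. Mag, the adhesion protein that faces the axon, read 6.15, 6.72 and 6.98 in the VTA and 4.06, 4.83 and 5.95 elsewhere. No array of another region reached the lowest VTA array for either gene. Ermn, an actin-binding protein of mature oligodendrocytes, read 11.57, 12.09 and 12.36 in the VTA and 7.34, 9.37 and 10.98 elsewhere, again without overlap. Ugt8, the enzyme that makes galactosylceramide, read 4.94, 6.73 and 8.64 in the VTA and 3.13, 3.74 and 4.82 elsewhere. Its groups did not overlap either, but its 4 naive VTA arrays alone ran from 4.94 to 8.64. Cnp, a phosphodiesterase of the cytoplasmic channels of myelin, read 12.77, 13.30 and 14.06 in the VTA and 10.20, 11.55 and 13.03 elsewhere, with 3 mPFC arrays reaching the lowest VTA array.

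**Figure D1:**
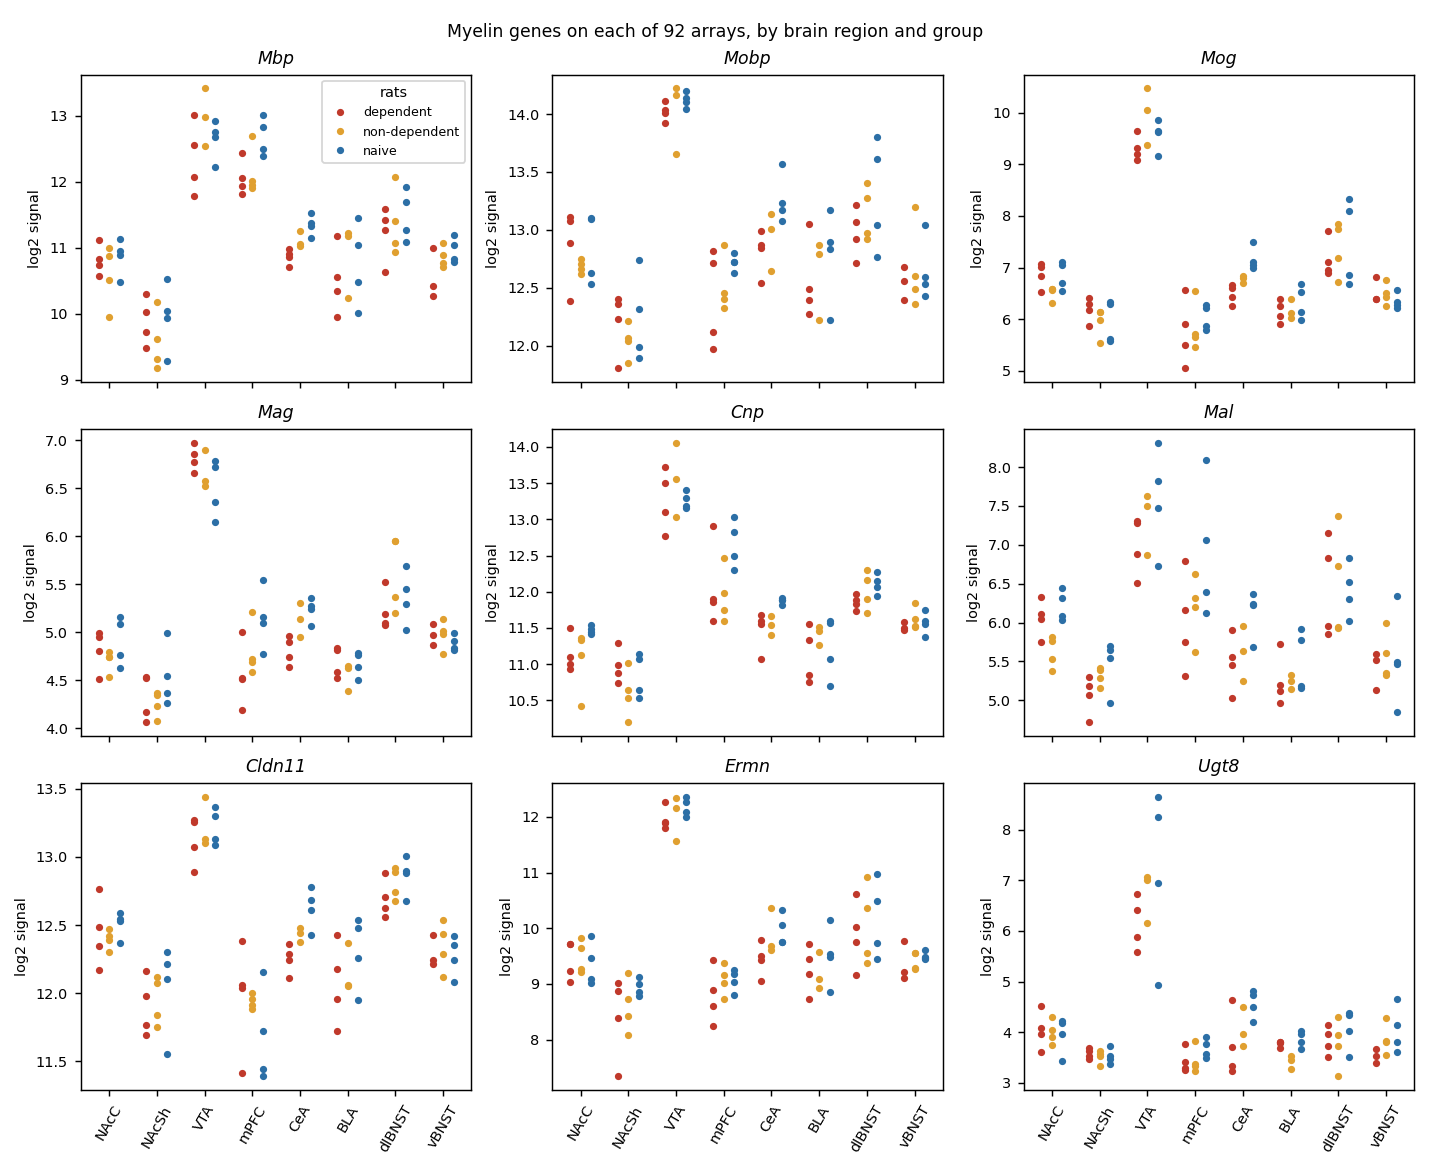
Level of each of the 9 genes by region. Each point is 1 of 92 arrays on the log2 scale (y axis), the x axis gives the region with dependent, non-dependent and naive rats from left to right. For Mog, Mag, Ermn and Ugt8 every VTA point lies above all 81 points of the other regions.

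The VTA was compared with the mean of the other 7 regions in 1 limma fit over 8762 genes, those with a mean above 4 over the 92 arrays. Ugt8 passed that filter with a mean of 4.15 that rests on the VTA, since its mean over the other 81 arrays was 3.80, near the bottom of the scale. It had to differ, and its difference is given without a fold. The other 8 genes all rose, where 41.4% of the genes tested did. The rise was 3.09 ± 0.12 (SE) for Mog, an 8.49-fold difference, 2.89 ± 0.15 for Ugt8 and 2.69 ± 0.12 for Ermn (6.43-fold). It was 1.81 ± 0.10 for Cnp, 1.80 ± 0.08 for Mag, 1.65 ± 0.12 for Mbp, 1.49 ± 0.14 for Mal and 1.35 ± 0.09 for Mobp, and at 0.90 ± 0.07 (1.87-fold) it was least for Cldn11. The adjusted p of limma ran from 1.89e-41 to 4.74e-17. The median of the 8 genes without Ugt8 was 1.73, against 0.04 over all genes tested.

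Set against each of the other regions in turn, the VTA was higher in 56 of 56 tests of the 8 genes other than Ugt8, by 0.33 to 3.70, where 73.8% of all genes, over the 7 pairs, were called in either direction. The narrowest was Mbp in the VTA against the mPFC, at 0.33 ± 0.16 (adjusted p = 0.0429). All 15 probe sets of these genes that passed the filter were higher in the VTA, by 0.39 to 3.74.

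Below the VTA the order of the regions was not the same for all genes. The dlBNST followed the VTA for Mobp, Mog, Mag, Mal, Cldn11 and Ermn, the mPFC did for Mbp and Cnp, and the CeA for Ugt8. The NAcSh was lowest for Mbp, Mobp, Mag, Cnp, Mal and Ermn, and the mPFC for Mog, Cldn11 and Ugt8. In order, Mog averaged 9.58 (VTA), 7.34 (dlBNST), 6.81 (CeA), 6.74 (NAcC), 6.45 (vBNST), 6.23 (BLA), 6.03 (NAcSh) and 5.88 (mPFC, SDs 0.20 to 0.57, n = 11 or 12). Of its 7 steps only those from the VTA to the dlBNST and from the dlBNST to the CeA passed the test. Mbp averaged 12.63 (VTA), 12.29 (mPFC), 11.36 (dlBNST), 11.11 (CeA), 10.81 (vBNST), 10.75 (NAcC), 10.70 (BLA) and 9.80 (NAcSh), and its first 2 steps and its last passed. Of 7 steps, 4 passed for Cnp, 3 each for Mag, Cldn11 and Ermn, 2 each for Mobp and Mal, and 1 for Ugt8, the step below the VTA. The other neighbours in each order did not differ beyond their spread. Over all 28 pairs of regions, 67% of the genes were called.

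The other regions were set against the mean of the remaining 7, which holds the high VTA, and also, as a choice made after seeing the data, against the remaining 6 without the VTA. Ugt8 was in this fit through the VTA, which is among the 7, so its falls against the 7 were partly fixed by that. All 9 genes, or 8 without Ugt8, fell in the NAcSh against the 7, where 43.8% of genes did. The falls ran from 0.49 (Cldn11) to 1.58 (Mbp). Against the 6, 8 fell (42.2% of genes), Mbp the most (-1.37), with Ugt8 at -0.30. In the dlBNST 7 genes rose against the 7, by 0.28 (Cnp) to 0.53 (Mog and Mal), against 34.8% of genes. Against the 6, 8 rose there, from 0.46 (Mbp) to 0.99 (Mog), where 37.4% of genes did, and Ugt8 was at 0.10.

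In the BLA, vBNST, NAcC and CeA the calls depended on the VTA being among the others. In the BLA all 9, or 8 without Ugt8, fell against the 7, by 0.24 (Cldn11) to 0.75 (Mog and Mal), where 35.4% of genes did. Without the VTA 5 fell there (32.9% of genes), Mal by 0.55, Cnp by 0.34, Mbp by 0.33, Mog by 0.32 and Mag by 0.25, and Mobp was at -0.06. In the vBNST 6 genes, or 5 without Ugt8, fell against the 7 (25.2% of genes). Only Mal (-0.36) fell against the 6 (26.2%), with Mog at -0.06. In the NAcC 4 fell against the 7 (Cnp -0.61, Mbp -0.49, Mag -0.32 and Ermn -0.32), where 44.6% of genes did. Against the 6, Cnp (-0.36) and Mbp (-0.26) fell (42.3% of genes), whereas Mog (0.29) and Cldn11 (0.19) rose (27.5%). None passed in the CeA against the 7, where the lowest adjusted p was 0.0644, 1 gene had an unadjusted p under 0.05, and 32.7% of all genes were called higher and 31.3% lower. Without the VTA 6 genes rose in the CeA (33.8% of genes), Ermn by 0.45, Ugt8 by 0.37, Mog by 0.37, Mobp by 0.35, Mag by 0.22 and Cldn11 by 0.18.

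**Figure D2:**
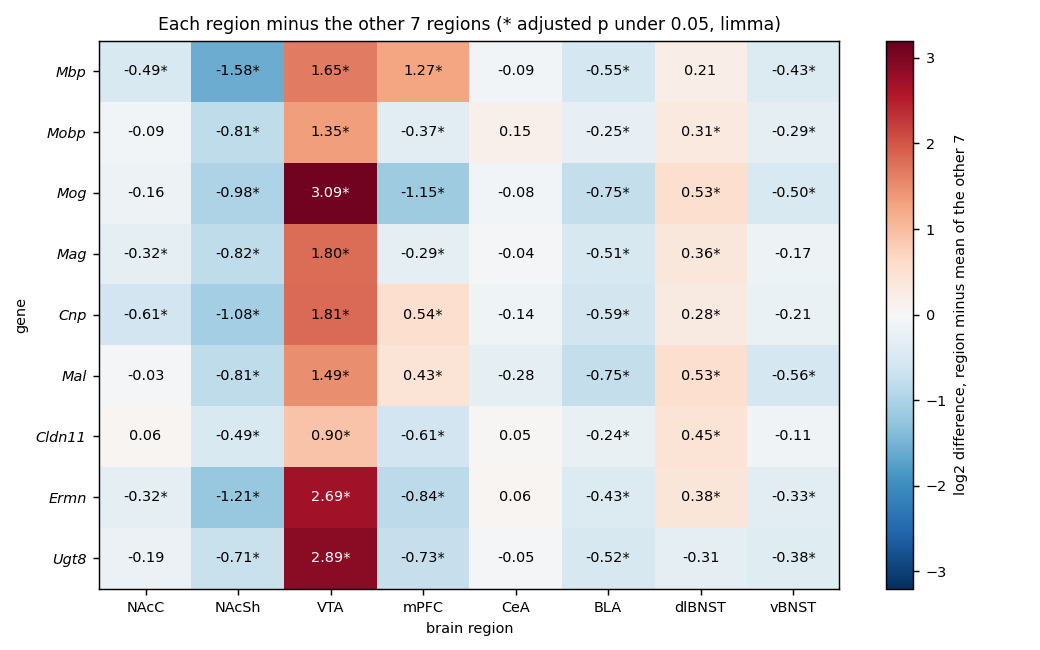
Difference between each region and the mean of the other 7, the VTA included (log2, color), for the 9 genes, with an asterisk where the adjusted p was under 0.05. The VTA holds only higher values, from 0.90 to 3.09, the NAcSh only lower ones, and the mPFC both.

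In the mPFC the 9 genes split in direction past the test. Mbp rose there by 1.27 ± 0.12, a 2.42-fold difference, Cnp by 0.54 ± 0.10 and Mal by 0.43 ± 0.13, where 41.9% of all genes rose. Mbp read 11.81, 12.23 and 13.00 in the mPFC (lowest, median and highest of 12 arrays), against 9.18, 10.98 and 13.41 on the other 80 arrays. Mog fell by 1.15 ± 0.11, Ermn by 0.84 ± 0.12, Ugt8 by 0.73 ± 0.14, Cldn11 by 0.61 ± 0.06, Mobp by 0.37 ± 0.08 and Mag by 0.29 ± 0.08, where 46.5% of all genes fell. Mog read 5.06, 5.82 and 6.56 in the mPFC, against 5.54, 6.63 and 10.47 on the other arrays. In naive arrays alone, Mobp and Mag (-0.02) no longer passed. Without the VTA among the other regions, Mbp (1.54), Cnp (0.81) and Mal (0.66) rose, where 41.8% of genes did, and Mog (-0.72), Cldn11 (-0.49), Ermn (-0.46), Ugt8 (-0.33) and Mobp (-0.18) fell, where 46% did. Mag, at -0.04, no longer passed, and Ugt8 was near the bottom of the scale in the mPFC as elsewhere.

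Probe sets of 1 gene did not always share a direction in the mPFC. Mbp rose on the probe set used and by 0.93 on one with a mean of 4.74, but fell by 0.42 on one with a mean of 7.27. Mobp fell on the probe set used and by 1.31 on one with a mean of 9.41, and rose by 0.67 on one with a mean of 4.17. Cnp (0.54 and 2.09) and Ermn (-0.84 and -2.66) kept 1 direction on both of their probe sets. These directions were the same without the VTA among the other regions. The 3′ probe set of Gapdh, an enzyme of glycolysis used as an array control, read 12.77 to 13.59 on mPFC arrays, and its means in the other regions ran from 9.92 to 11.38. The part of this difference between arrays in the split was not tested.

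**Figure D3:**
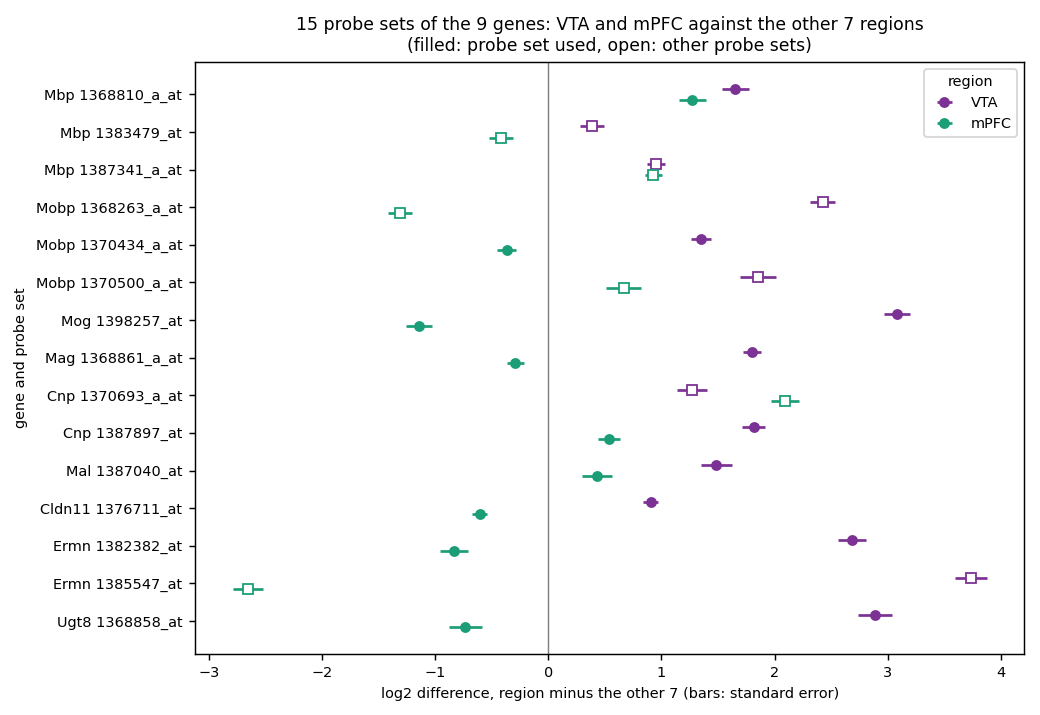
Difference of the VTA and of the mPFC from the mean of the other 7 regions (log2, x axis, with SE) for each of the 15 probe sets (y axis), filled where the probe set was used for its gene. All points of the VTA lie above 0, at 0.39 to 3.74, and those of the mPFC spread from -2.66 to 2.09. Ugt8 and the Mobp probe set with a mean of 4.17 could pass the filter through the VTA.

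A wider list of mature oligodendrocyte genes, without the 9, moved with them in the VTA. Of 51 listed genes, 31 were tested and 30 rose there (41.4% of all genes did), with a median of 1.85. The largest was Apod, a lipid carrier, at 5.21 ± 0.18, and the protease Klk6 rose by 4.42 ± 0.11, the protease Adamts4 by 3.26, Enpp2, which makes lysophosphatidic acid, by 2.02, the myelin proteolipid Pllp by 1.97 and Myrf, the transcription factor of myelin genes, by 1.86. The exception was the tubulin-binding gene Tppp, at 0.07 (adjusted p = 0.112). The filter used the mean over all 92 arrays, so a dim gene could pass it through a high VTA and then had to rise. Klk6 (mean of 4.48 over the 92 arrays) and Opalin (4.08) lay near the filter, so the count of 30 is not free of it. The same can hold for the lists that follow. In the mPFC 8 of the 31 rose and 18 fell, with a median of -0.40 against -0.06 over all genes, of which 41.9% rose and 46.5% fell. Without the VTA among the other regions 10 rose and 16 fell, with a median of -0.19, where 41.8% of all genes rose and 46% fell. There the deacetylase Sirt2 rose by 3.93, the septin Septin4 by 1.21, the lineage factor Olig1 by 0.69, Apod by 0.62, Efhd1 by 0.30 and Tppp by 0.19. Evi2a (-3.29), Adamts4 (-2.71), Tspan2 (-1.83), Myrf (-1.29), Enpp2 (-1.11) and Aspa, which breaks down N-acetylaspartate (-1.30), fell.

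Cholesterol synthesis genes went the same way in the VTA, with 13 of 13 higher and a median of 1.15, among them Sqle (1.43), Fdft1 (1.26), Idi1 (1.22) and Dhcr7 (1.16). Neurofilament genes of large axons were higher in 4 of 4, with Nefh at 4.08, Nefm at 2.62, Nefl at 1.53 and Ina at 0.87. Oligodendrocyte progenitor genes were mixed, 4 of 9 higher and 3 lower: Vcan rose by 1.18 and Ptprz1 by 0.22, Cspg4 fell by 0.19, and Pdgfra, the receptor that marks these cells, was at 0.01. Markers of other cells did not move as 1 block. In the VTA 6 of 10 astrocyte markers were higher and 4 lower, 2 of 12 neuron markers higher and 8 lower, 0 of 6 microglia markers higher and 1 lower, and 6 of 6 endothelial and mural markers higher. Over all genes tested 41.4% were higher and 36.4% lower there, shares that apply to every list of this paragraph. Schwann cells, which make the myelin of peripheral nerve, were covered by 1 tested marker, Pmp22, at 2.47, whereas Prx and Pmp2 were below 4 on all 92 arrays. Scn7a of the same list was below the filter, with a mean of 7.07 in the VTA, 2.53 to 5.26 in the other regions, and 23 arrays above 4.

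The genes outside the 9 whose levels ran closest to the mean of the 9 over the 92 arrays were S1pr5 (Pearson r = 0.954), Lpar1, a receptor of lysophosphatidic acid (0.952), Opalin (0.945), Litaf (0.937), Elovl1 (0.929), Klk6 (0.925), Apod (0.923), Car14 (0.917), Pllp (0.916) and Cryab (0.913). These arrays share regions, with the VTA highest for all 9 genes. With region means removed, the closest were Slc44a1 (0.845), Gpr37 (0.812), Cfap20dc (0.783), Klk6 (0.773), Lpar1 (0.771), Opalin (0.745), S1pr5 (0.701), Evi2a (0.685), Litaf (0.665) and Cdc42ep2 (0.663). Among the 9 genes, with the mean of each group and region removed, 36 of 36 pairs had an r above 0, from 0.07 to 0.75 (median 0.46, 92 arrays). Both are descriptions of arrays that share a labelling reaction for all genes.

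Alcohol history was then compared over all 8 regions in 1 limma fit, with the labelled group and number as a random block (correlation -0.01). The labels do not say that a number is the same rat in every region. With a correlation this near 0, arrays of 1 rat were treated as nearly independent whether it is or not. Relative to naive rats, 5 of the 9 genes fell in dependent rats, Mal, Ugt8, Mbp, Ermn and Mobp, where 9.44% of the 8762 genes fell and 4.06% rose. Mal, the sorting proteolipid, averaged 5.84 in dependent, 5.92 in non-dependent and 6.22 in naive rats over the 8 region means, and it fell by 0.38 ± 0.10 (SE), or 23.4%, in dependent against naive rats (adjusted p = 0.00863). Ugt8 averaged 4.01 in dependent, 4.10 in non-dependent and 4.36 in naive rats, and fell by 0.35 ± 0.11 (adjusted p = 0.0278). It was in this fit through the VTA, was below 4 on average in 5 regions, and was not tested without the VTA. Mbp averaged 11.03 in dependent, 11.19 in non-dependent and 11.33 in naive rats, and fell by 0.30 ± 0.09, or 18.6% (adjusted p = 0.0206). The means ran in the same order in all 3 genes, with naive rats highest.

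Ermn fell by 0.27 ± 0.09 (adjusted p = 0.0410) and Mobp by 0.19 ± 0.06 (adjusted p = 0.0353) in dependent against naive rats. The other 4 genes did not pass: Cnp was at -0.20 (adjusted p = 0.0603), Mog at -0.17 (0.200), Mag at -0.13 (0.125) and Cldn11 at -0.10 (0.182). The median of the 9 was -0.20, with or without Ugt8, against -0.03 over all genes tested. The same 5 genes passed when the arrays of each group and number were averaged first. By region, the difference of Mal ran from -0.91 in the mPFC to 0.03 in the dlBNST, lower in 7 of 8 regions. Mbp was lower in 8 of 8 regions, from -0.62 in the mPFC to -0.04 in the NAcC.

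Non-dependent rats passed the test for none of the 9 genes against naive rats, where 1.89% of all genes were lower and 0.947% higher. At an unadjusted p under 0.05 there were 4 of the 9, and 18.5% of all genes. Mal came nearest, at -0.30 (adjusted p = 0.0919), and the median of the 9 was -0.16. Dependent against non-dependent rats gave none either, where 0.536% of all genes were lower and 0.297% higher, and the median of the 9 was -0.07. At an unadjusted p under 0.05 there were 0 of the 9, and 13.5% of all genes. The difference between dependent and non-dependent rats ran from -0.16 (Ermn) to -0.03 (Cnp). The 3 comparisons share arrays. Over the 72 pairs of a gene and a region, the mean of dependent rats was below that of naive rats in 57, the mean of non-dependent below naive rats in 53, and the mean of dependent below non-dependent rats in 47.

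These calls were near the threshold. With the arrays of dependent replicate 1 left out in all regions 2 calls stood (Mal and Mbp), and with dependent replicate 2, dependent replicate 4, naive replicate 2 or naive replicate 4 left out 3 stood. Without the CeA or without the dlBNST, choices made after seeing the data, only Mal passed, and 3 calls stood without the mPFC and 3 without the vBNST. Mal passed in 27 of 28 alternative settings, the exception being all 96 arrays, where no gene passed. The Mbp probe set with a mean of 7.27 ran the other way, 0.19 higher in dependent rats (adjusted p = 0.104). The 3′ minus 5′ signal of beta-actin (Actb), a sign of RNA or labelling quality, was 7.94 ± 0.50 in dependent (n = 31), 8.02 ± 0.50 in non-dependent (n = 29) and 7.49 ± 0.59 in naive arrays (SD, n = 32). It moved with the groups, and so did the 3′ signal of Actb alone, at 10.99 in dependent, 11.11 in non-dependent and 10.53 in naive arrays. The 3′ minus 5′ signal of Gapdh ran the other way, at 1.61 in dependent, 1.74 in non-dependent and 1.87 in naive arrays. The 2 signs thus do not give 1 order of RNA quality, and their part in the result was not tested.

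**Figure D4:**
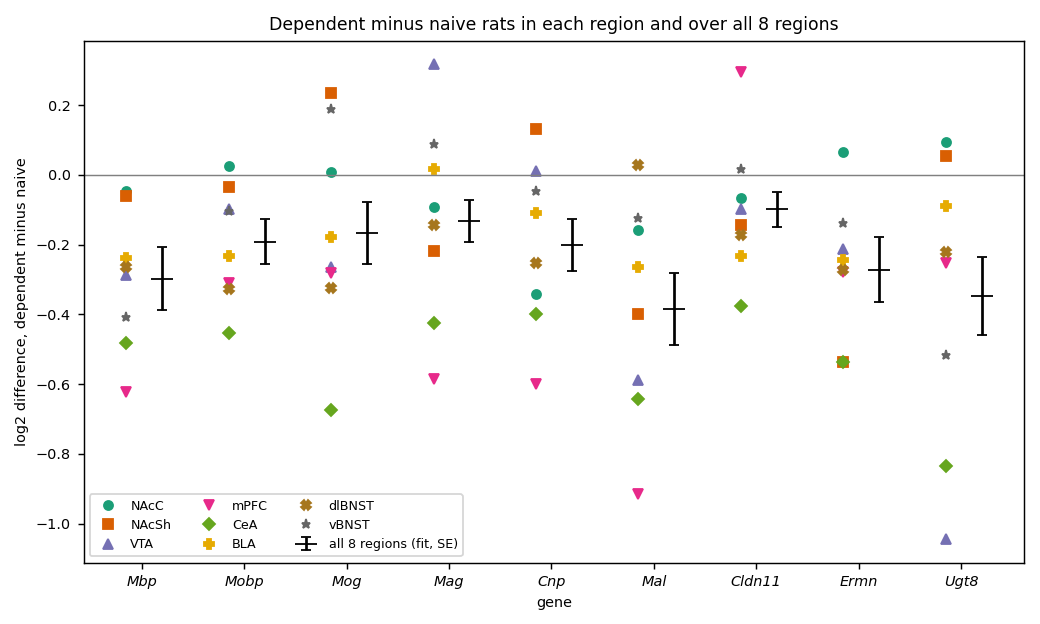
Mean of dependent minus naive rats (log2, y axis) for each gene (x axis), 1 point per region, and the difference over all 8 regions with its SE. The differences over all regions lie between -0.38 for Mal and -0.10 for Cldn11, and single regions scatter on both sides of 0 for all genes but Mbp.

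Of the wider list, 6 of 31 genes fell in dependent against naive rats, Gsn by 0.50, Apod by 0.39, Klk6 by 0.31, Lpar1 by 0.28, Cers2 by 0.26 and Car2 by 0.21, and none rose, with a median of -0.14. Of all genes tested, 9.44% fell and 4.06% rose. Gsn codes for gelsolin, an actin-severing protein, and Cers2 for a synthase of very long chain ceramides. Pllp was at 0.07, Enpp2 at 0.03 and Cryab at 0.03, without passing. Lpar1, Car2 and Apod were named after their values were seen, as were the next genes. Of the other lists, Enpp6 fell by 0.33 as 1 of 9 progenitor genes, Fdft1 (-0.36), Pmvk (-0.17) and Sc5d (-0.16) fell as 3 of 13 cholesterol genes, Nefh (-0.42) and Nefm (-0.33) as 2 of 4 neurofilament genes, Slc17a6 (-0.75), Tubb3 (-0.29) and Stmn2 (-0.18) as 3 of 12 neuron markers, and Csf1r (-0.25) as 1 of 6 microglia markers. None of 10 astrocyte and 6 endothelial and mural markers passed. The share of 9.44% over all genes applies to these lists too, and single genes of short lists are not set apart from it.

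Within single regions, no gene of the 9 passed in any of 24 comparisons, and few genes did at all: 5 of 8989 in the mPFC (0.0556%) and 9 of 8715 in the dlBNST (0.103%) for dependent against naive rats, 7 of 8989 in the mPFC for non-dependent against naive rats (0.0779%), and 0% in the other 21. The number of arrays, 4 or 3 per group, limits the precision. Ugt8 passed the filter in the NAcC, VTA and CeA alone, so that 8 genes were tested in the other regions. In the CeA its mean of 4.13 was near the filter and its naive mean was the highest. It could thus pass there through the naive arrays. At an unadjusted p under 0.05, the 9 genes gave 9 in the CeA and 4 in the mPFC for dependent against naive rats, and 0 or 1 in each of the other 6 regions. Of all genes tested, 7.23% did so in the CeA, 17.1% in the mPFC and 5.94% to 15.7% in the other regions, most in the dlBNST.

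In the CeA all 9 genes were lower in dependent than in naive rats, at unadjusted p under 0.05, with adjusted p of 0.382 to 0.602. For Ugt8 this was not free of the filter, which it could pass through its higher naive arrays. Mog read 6.66, 6.26, 6.43 and 6.61 in dependent, 6.83, 6.80 and 6.70 in non-dependent and 7.06, 7.12, 7.49 and 6.997 in naive rats. The 3 groups did not overlap, with dependent rats lowest and naive rats highest, and dependent rats differed from naive rats by -0.67 ± 0.13 (SE). Mbp read 10.98, 10.90, 10.87 and 10.71 in dependent, 11.25, 11.02 and 11.06 in non-dependent and 11.15, 11.52, 11.33 and 11.38 in naive rats. All dependent arrays were below all others, and the difference from naive rats was -0.48 ± 0.11. Cldn11 read 12.24, 12.11, 12.36 and 12.29 in dependent, 12.48, 12.44 and 12.37 in non-dependent and 12.78, 12.43, 12.61 and 12.68 in naive rats. Here too every dependent array was below all others, and the difference from naive rats was -0.37 ± 0.10.

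Cnp read 11.68, 11.07, 11.60 and 11.55 in dependent, 11.54, 11.67 and 11.40 in non-dependent and 11.81, 11.89, 11.88 and 11.91 in naive rats. Both alcohol groups lay below all naive arrays and overlapped each other. Mobp read 12.86, 12.54, 12.84 and 12.99 in dependent, 13.14, 13.01 and 12.65 in non-dependent and 13.17, 13.23, 13.56 and 13.08 in naive rats. Mag read 4.90, 4.64, 4.74 and 4.96 in dependent, 5.30, 5.14 and 4.95 in non-dependent and 5.28, 5.25, 5.06 and 5.36 in naive rats. In both genes dependent rats were below all naive rats, and non-dependent rats overlapped both groups. Mal, Ermn and Ugt8 had overlapping dependent and naive arrays, with mean differences of -0.64, -0.54 and -0.83.

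Dependent and naive arrays of the CeA thus did not overlap for 6 of 9 genes, all lower, where 2.81% of genes were lower without overlap. Non-dependent and naive arrays did not overlap for 2 (Cnp and Mog, against 4.09%), and dependent and non-dependent arrays for 3 (Cldn11, Mbp and Mog, against 2.63%). Outside the CeA, 2 genes did so, Cnp and Mal in the NAcC for non-dependent against naive rats, both lower, against 3.88% of genes. Over the other 20 comparisons 3.81% of genes were lower without overlap, and none of the 9 that passed the filter was higher without overlap in any of the 24 comparisons, as 2.51% of genes were. Ugt8 in the BLA was lower without overlap in non-dependent rats, but below the filter. The CeA difference stood with other signals of the same arrays. The mean of 12 microglia markers was 5.47 to 5.64 in dependent, 5.53 to 5.67 in non-dependent and 5.72 to 5.82 in naive arrays, and that of 11 astrocyte markers 9.89 to 10.13 in dependent, 9.83 to 10.13 in non-dependent and 10.10 to 10.22 in naive arrays. Of the tested markers, 3 of 6 microglia, 1 of 10 astrocyte and 0 of 11 neuron genes had an unadjusted p under 0.05 between dependent and naive rats, as did 7.23% of all genes. The mean of 12 neuron markers was 9.33 to 9.66 in dependent, 9.33 to 9.51 in non-dependent and 9.45 to 9.54 in naive arrays. The 3′ minus 5′ signal of Actb was 6.55 to 7.45 in dependent, 7.14 to 7.50 in non-dependent and 6.22 to 7.04 in naive arrays, and its part and that of the other cells were not tested.

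**Figure D5:**
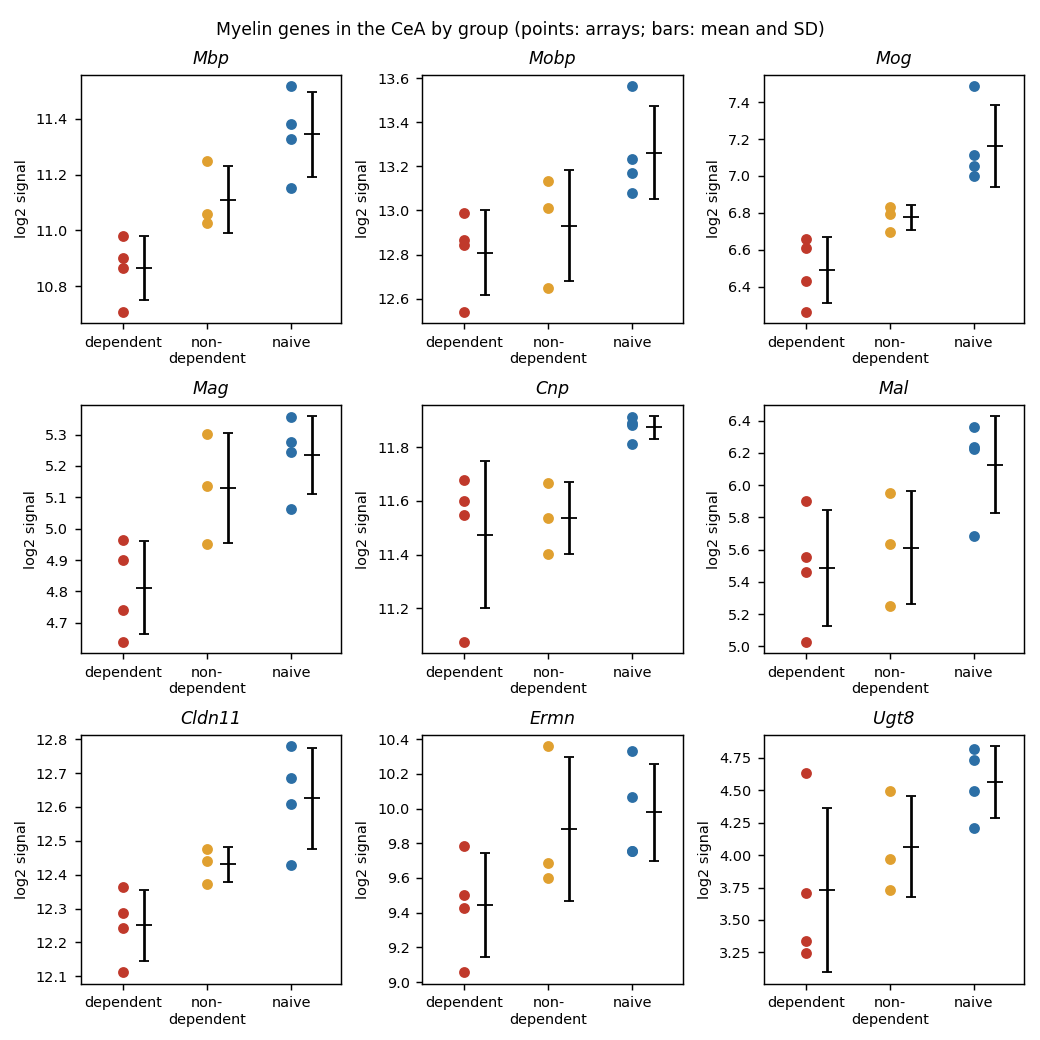
Level of the 9 genes in the CeA (log2, y axis) by group, 1 point per array with the mean and SD, dependent, non-dependent and naive rats from left to right. Dependent arrays lie below all naive arrays for Mbp, Mobp, Mog, Mag, Cnp and Cldn11.

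In the mPFC the differences of dependent from naive rats were of like size and wider spread. Mal read 5.75, 6.17, 6.79 and 5.31 in dependent, 6.31, 5.62, 6.63 and 6.19 in non-dependent and 7.07, 6.13, 6.39 and 8.09 in naive rats. The groups overlapped, and the difference of dependent from naive rats was -0.91 ± 0.41 (SE). Mbp (-0.62), Cnp (-0.60) and Mag (-0.59) likewise had unadjusted p under 0.05 and adjusted p of 0.166 to 0.292, and Cldn11 was 0.30 higher. Replicate 3 of the dependent rats was the highest of its group for Mbp, Cnp, Mag and Mal. Without it Cnp (-0.88), Mbp (-0.75) and Mag (-0.73) passed the test, and so did 602 of 8985 genes. That array was picked after these values were seen. Leaving out the highest array of the lower group widens the difference, so these calls add no evidence.

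In the VTA, where the 9 genes were highest, the mean of dependent rats was below that of naive rats for 7 of the 9. Non-dependent rats were below naive rats for 4 of the 9. The median difference of dependent from naive rats was -0.21, and Mal was at -0.59, without passing. Mog read 9.08, 9.32, 9.19 and 9.65 in dependent, 10.05, 9.37 and 10.47 in non-dependent and 9.64, 9.86, 9.16 and 9.63 in naive rats. Non-dependent rats held the highest arrays and overlapped both other groups. Dependent and non-dependent rats differed for Mog by -0.65 (adjusted p of limma 0.263). With weights per array the difference was -0.66 and passed the test, the only call among the 9 genes in that setting. The share of all genes that passed with weights was not counted, so this call is not set apart from it. Ugt8 read 6.42, 5.59, 6.73 and 5.89 in dependent, 7.01, 6.16 and 7.07 in non-dependent and 4.94, 8.64, 8.26 and 6.95 in naive rats, and its naive arrays enclosed all others. Mag was 0.32 higher in dependent than in naive rats in the VTA, without passing.

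Whether the group differences themselves differed between regions was tested with the 14 interaction coefficients. None of the 9 genes passed at an adjusted p under 0.05, where 2.35% of the genes did. Mag had the lowest p (unadjusted 0.0104, adjusted 0.147), with differences of dependent from naive rats of -0.59 in the mPFC and 0.32 in the VTA. The other genes had adjusted p of 0.399 to 0.999. The difference in the CeA was therefore not shown to be apart from that in other regions.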

How the data were processed

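RNA of 8 microdissected brain regions, 30 or 50 ng depending on the region, was amplified, labeled with biotin and hybridized to 96 rat arrays. The authors deposited log2 signals made with GCRMA 2.36.0 under R 3.03, per the labels' processing notes; the later probe set selection of the study (Cleaner) was not used, and the values were taken without another normalization. Of 31099 probe sets, 20832 name 1 gene and were used, 436 name several and 9831 none; 20764 matched a current gene record, and the highest-mean probe set stood for each of 14218 genes. Genes with a mean above 4 were tested.

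Groups came from the labels. Tests used limma 3.58.1 in R 4.3.3 with Benjamini-Hochberg adjustment over all genes tested, at 0.05: 1 fit per region for 3 group comparisons (24 in all), 1 fit of 92 arrays for regions and for the group by region interaction, and 1 fit over all regions with the labelled group and number as a random block (correlation -0.01). The fits were also run on simulated data, for single regions in the CeA alone. The simulated noise was independent between arrays and held no interaction, so shared animals and interactions were not covered. Text tables were made with Python 3.11.15, numpy 2.4.6 and pandas 2.3.3, and figures with matplotlib 3.10.9.

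The 9 genes, the gene lists and the 4 arrays left out were chosen with earlier results of these data known. Named beside the 9 genes were, by rule, up to 6 genes per direction with the smallest p of the wider list in the VTA and mPFC, up to 3 in a group comparison, the 10 closest genes in each correlation, and the first 4 measured of the other lists. Alternatives were all 96 arrays, no filter and a filter above 6, quantile and median scaling, the mean of a gene's probe sets, array weights, naive arrays only, the compared groups only, other treatments of the block, leaving out each array, number or region, and leaving the VTA out of the mean that other regions were set against. Depth has no counterpart on arrays, and their number limits the precision.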

Additional observations from a re-analysis of the deposited data

Results flagged for a closer look

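Of 180 groups of 4 arrays (9 genes, by region and alcohol history), 2 held an array far from the others, and chance gives about 1 in 20 groups. For Mbp in the mPFC, non-dependent replicate 3 read 12.70, against 11.91 to 12.01 for the other 3 non-dependent arrays, and this array lay within the naive range of 12.39 to 13.00. For Mog in the NAcC, non-dependent replicate 2 read 6.31, against 6.57 to 6.59 for the other 3 non-dependent arrays.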

How the results depend on the processing

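The counts of the 9 genes that passed depended on the processing in the group comparisons more than in the region comparisons. Over all regions and the 3 group comparisons there were 5 calls, all in dependent against naive rats. There were 0 with all 96 arrays, 3 without a filter, 3 with a filter above 6 (Mal and Ugt8 are then not tested), 2 with the mean of probe sets, and 2 to 6 with a number of a group left out. With a region left out, a choice made after seeing the data, there were 3 without the mPFC, 1 without the CeA, 1 without the dlBNST, 3 without the vBNST and 4 or 5 otherwise. Within regions, 0 calls became 1 with array weights and 0 to 3 with an array left out. The 53 region calls (19 higher, 34 lower) included those of Ugt8. They ran from 52 to 56 with a number left out. There were 36 with a filter above 6, 40 in naive arrays and 41 with all 96 arrays. With the VTA left out of the mean of the other regions, a choice made after seeing the data, there were 49, of which 28 were higher and 21 lower. VTA differences passed in 176 of 176 alternative values, mPFC differences in 180 of 185 (not Mobp and Cldn11 with all 96 arrays, Mobp and Mag in naive arrays, nor Mag without the VTA), and CeA differences of dependent from naive rats in 0 of 905, all below 0. Many of the 905 CeA values repeat the main fit, since leaving out an array of another region leaves the CeA fit unchanged. None of the values followed through these settings changed direction, and those repeats could not. Arrays of the same number correlated at -0.37 to 0.46 within regions, so the numbers were not taken to pair arrays. With a replicate block there were 0 calls within regions, 53 for regions and 0 for the interaction, and with no replicate block 4 over all regions. The causes of these shifts were not tested.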
